A study of Mus musculus with 8 samples.

Results

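The 9 genes described here, Slc34a1, Lrp2, Cubn, Slc5a2, Slc5a12, Slc22a6, Kap, Miox and Gatm, mark the proximal tubule of the kidney. They were chosen and read by their gene symbols from a table of 77981 genes, in RNA from mouse kidney whose cell type label is IMCD, the inner medullary collecting duct. 4 libraries had the genotype AVP-flox;Cre, which joins a Cre recombinase to loxP sites around the vasopressin gene Avp, and 4 had the genotype AVP-flox, with the loxP sites alone. All 8 were from tamoxifen treatment, so the control libraries share both the floxed gene and the drug, and no library carried Cre without the floxed gene. The labels used here give no promoter for Cre, no strain and no age, and never state that each library is its own animal, so p-values cover just the spread among these 8 libraries, which may be technical. Levels are TPM, transcript abundance per length on a total that all libraries share, and the depth behind them is unknown.

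The proximal tubule is the first segment of the nephron after the glomerulus and lies in the cortex and the outer medulla. Its cells reclaim glucose, phosphate, amino acids and filtered protein from the forming urine and secrete organic anions. The inner medulla holds collecting ducts and thin limbs but no proximal tubule, so transcripts of proximal tubule genes in a dissected inner medulla are used as a readout of carry-over from the outer kidney. In bulk RNA, carried-over proximal tubule and another source of these transcripts cannot be told apart, nor can fewer cells of a type and less RNA per cell. Libraries stood apart in other respects as well. Genes listed above 0 TPM numbered 33576 in AVP-flox;Cre 2, while the remaining libraries had 50951 to 58232. Genes that reached 1 TPM numbered 23412 in AVP-flox;Cre 4, while the remaining libraries had 16608 to 20765. Aqp2, the water channel that defines the principal cell of the labelled segment, was at 5443 to 7036 TPM in the AVP-flox;Cre libraries and at 14915 to 18131 TPM in the AVP-flox libraries.

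All 9 markers were above 0 TPM in all 8 libraries, and their summed level ran from 44.1 to 684 TPM, or 0.00441% to 0.0684% of a library. The sum was 131, 203, 251 and 97.1 TPM in AVP-flox;Cre 1 to 4, and 684, 75.5, 356 and 44.1 TPM in AVP-flox 1 to 4. The highest and the lowest library were therefore both controls. Kap, the kidney androgen-regulated protein gene of the mouse proximal tubule, made up 72.8% to 85.6% of the sum.

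Kap had 105, 169, 215 and 70.6 TPM in AVP-flox;Cre 1 to 4, and 563, 55.4, 262 and 33.5 TPM in AVP-flox 1 to 4. Among the transporters, Slc34a1, the sodium-phosphate cotransporter of the brush border, had 7.06, 12.1, 11.4 and 5.19 TPM in AVP-flox;Cre 1 to 4, and 42.0, 4.20, 23.2 and 2.61 TPM in AVP-flox 1 to 4. In both genes AVP-flox 1 and 3 were above every other library, AVP-flox 2 and 4 were below every other library, and the libraries with Cre lay between them, so the groups overlapped. Slc22a6, which encodes the organic anion transporter OAT1, had 1.30, 1.46, 1.19 and 0.49 TPM in AVP-flox;Cre 1 to 4, and 5.18, 0.36, 2.56 and 0.25 TPM in AVP-flox 1 to 4. Slc5a2, the glucose transporter SGLT2 of the early segment, ran from 0.54 to 1.51 TPM in the AVP-flox;Cre libraries and from 0.43 to 3.50 TPM in the AVP-flox libraries. Slc5a12, a sodium-coupled lactate transporter, was the weakest of the 9, at 0.13 to 0.22 TPM in the AVP-flox;Cre libraries and 0.17 to 0.79 TPM in the AVP-flox libraries.

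The endocytic receptors were low although they are abundant proteins of the intact tubule. Lrp2, which encodes megalin, had 0.60, 0.51, 1.81 and 1.52 TPM in AVP-flox;Cre 1 to 4, and 2.18, 0.41, 4.64 and 0.41 TPM in AVP-flox 1 to 4. Here AVP-flox 3 was the highest library, and AVP-flox 1 the next. Cubn, which encodes cubilin, the partner of megalin in protein uptake, ran from 0.20 to 0.89 TPM in the AVP-flox;Cre libraries and from 0.20 to 1.45 TPM in the AVP-flox libraries. Of the metabolic enzymes, Miox, which opens the ring of myo-inositol, had 13.3, 16.2, 15.6 and 14.2 TPM in AVP-flox;Cre 1 to 4, and 59.7, 12.9, 47.2 and 4.91 TPM in AVP-flox 1 to 4. The AVP-flox;Cre libraries lay close together, within 1.22-fold, while the AVP-flox libraries spanned 12.2-fold. Gatm, which makes the precursor of creatine, ran from 1.90 to 3.89 TPM in the AVP-flox;Cre libraries and from 1.27 to 11.4 TPM in the AVP-flox libraries.

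**Figure D1:**
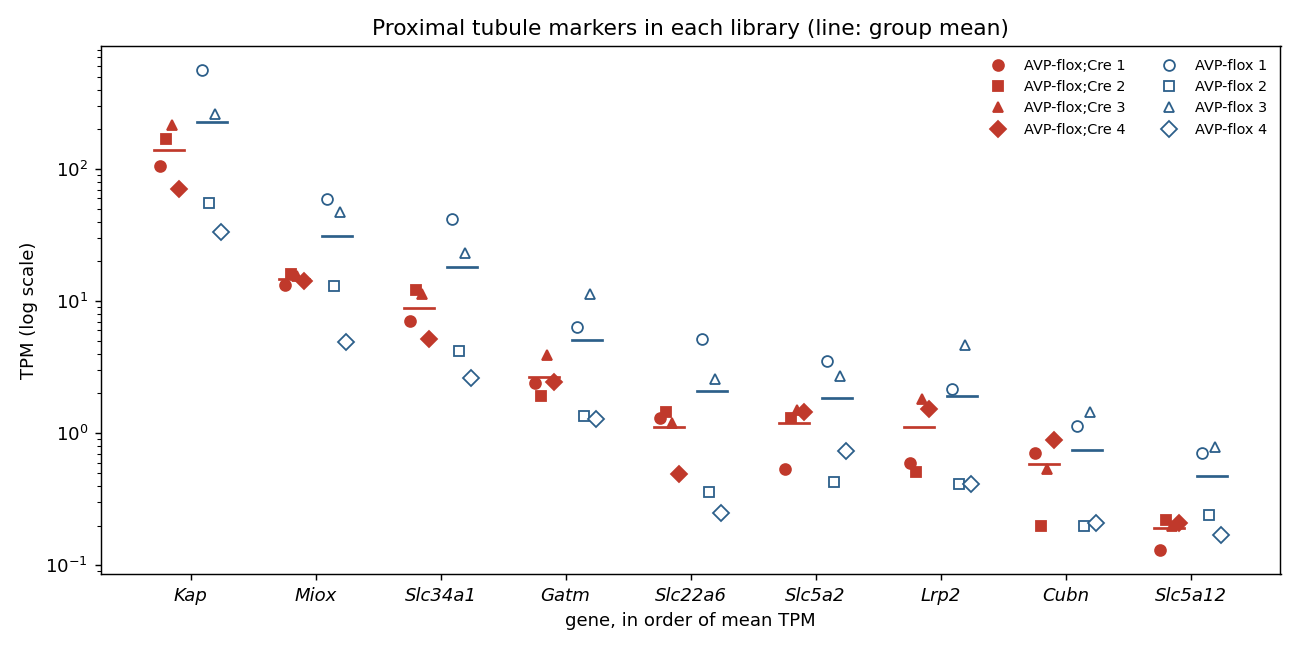
TPM (log scale) of the 9 markers in each library, with AVP-flox;Cre in filled red and AVP-flox in open blue, symbol shape for the replicate number and a line at each group's mean. For Kap the 4 AVP-flox;Cre libraries lie between 70.6 and 215 TPM, inside the 33.5 to 563 TPM of the AVP-flox libraries.

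By mean TPM over the 8 libraries, which is a level per length and can be compared between genes, the order was Kap (184 ± 173, SD), Miox (23.0 ± 19.4), Slc34a1 (13.5 ± 13.2), Gatm (3.87 ± 3.44), Slc22a6 (1.60 ± 1.63), Slc5a2 (1.52 ± 1.08), Lrp2 (1.51 ± 1.44), Cubn (0.67 ± 0.47) and Slc5a12 (0.33 ± 0.26). The first 4 kept this order, and stood above Slc22a6, in 8 of 8 libraries. Slc22a6, Slc5a2 and Lrp2 could not be ordered: Slc22a6 was above Slc5a2 in 3 of 8 libraries, and Slc5a2 above Lrp2 in 4 of 8. Lrp2 was above Cubn in 7 of 8 libraries and Cubn above Slc5a12 in 6 of 8.

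RefSeq promoter sequences on GRCm38.p6 matched 7 of the 9 genes, and for each the 250 bases before the annotated start were read on the gene's strand. Those of Kap and Slc34a1, the pair whose levels stayed closest in ratio, and of Slc22a6 and Lrp2, the pair whose ratio varied most, are shown. Capitals mark TATAAA, the letters of a TATA box, and GTTAAT, the core of the site bound by the hepatocyte nuclear factor HNF1, on either strand, so that a reverse match reads TTTATA or ATTAAC. The letters of the motifs do not overlap.
Kap (chr6:133853668-133853917, minus strand): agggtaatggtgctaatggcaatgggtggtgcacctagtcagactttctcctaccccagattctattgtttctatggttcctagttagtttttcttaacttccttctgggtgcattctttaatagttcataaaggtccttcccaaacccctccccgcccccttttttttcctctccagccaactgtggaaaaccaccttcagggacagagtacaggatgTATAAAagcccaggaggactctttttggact
Slc34a1 (chr13:55399398-55399647, plus strand): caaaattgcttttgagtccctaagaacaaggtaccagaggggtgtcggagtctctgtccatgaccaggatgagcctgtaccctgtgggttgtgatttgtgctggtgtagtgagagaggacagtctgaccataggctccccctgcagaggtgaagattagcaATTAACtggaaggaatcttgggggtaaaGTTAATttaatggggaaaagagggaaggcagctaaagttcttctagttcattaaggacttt
Slc22a6 (chr19:8617746-8617995, plus strand): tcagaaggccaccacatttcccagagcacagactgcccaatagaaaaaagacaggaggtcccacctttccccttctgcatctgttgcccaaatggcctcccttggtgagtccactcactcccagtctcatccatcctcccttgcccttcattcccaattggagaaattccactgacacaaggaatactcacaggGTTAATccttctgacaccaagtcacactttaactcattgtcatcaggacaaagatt
Lrp2 (chr2:69586030-69586279, minus strand): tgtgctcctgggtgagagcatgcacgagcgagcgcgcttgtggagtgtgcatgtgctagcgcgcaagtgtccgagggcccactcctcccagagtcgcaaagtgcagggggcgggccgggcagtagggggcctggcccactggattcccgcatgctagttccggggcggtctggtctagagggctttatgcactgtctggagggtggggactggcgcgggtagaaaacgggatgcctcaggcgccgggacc

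Counting backwards from the base before the start as -1, the TATAAA of Kap begins at -31, and that of Miox at -40. GTTAAT or its reverse begins at -61 and -89 in Slc34a1, at -56 in Slc22a6 and at -142 in Miox. TATAAA on either strand was thus in 2 of the 7 promoters and GTTAAT in 3 of 7, against 12.4% and 6.43% of 32851 promoters of the same length. The 250 bases of Lrp2 held neither motif and had 66.4% GC, against 45.6% in Kap, 46.4% in Slc34a1 and 48.4% in Slc22a6.

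Setting AVP-flox;Cre against AVP-flox asked whether the proximal tubule signal differed by genotype. No marker passed the test, and the groups overlapped for all 9. Kap averaged 139.9 ± 64.4 TPM in AVP-flox;Cre and 228 ± 246 TPM in AVP-flox (SD, n = 4 each). Its log2 fold change on the log2(TPM + 1) scale was -0.01 (SE 0.79, 95% interval -1.77 to 1.74, adjusted p = 0.993 in limma with Benjamini-Hochberg adjustment over all genes). Slc34a1 averaged 8.92 ± 3.33 TPM in AVP-flox;Cre and 18.0 ± 18.5 TPM in AVP-flox, a log2 fold change of -0.32 (SE 0.71, 95% interval -1.89 to 1.26, limma adjusted p = 0.780). Miox, at 14.8 ± 1.3 TPM in AVP-flox;Cre and 31.2 ± 26.4 TPM in AVP-flox, had the largest log2 difference of the 9 (-0.49, SE 0.62, 95% interval -1.88 to 0.90, limma adjusted p = 0.607). With single libraries left out, the value for Miox ran from -1.13 (without AVP-flox 4) to -0.0061 (without AVP-flox 1). All 3 intervals include a 2-fold fall with Cre, and those of Kap and Slc34a1 also include a 2-fold rise. Differences of that size in these directions were therefore not excluded.

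Of the 9 markers, 7 passed the filter of a mean of 1 TPM and were tested, and Cubn and Slc5a12 did not pass it. In limma 0 of the 7 had an adjusted p under 0.05 and 0 an unadjusted p under 0.05, against 27.3% of all 19043 genes tested that were called. Adjusted p ran from 0.607 to 0.993. For the exact permutation test of mean TPM, two-sided, p ran from 0.200 (Slc5a12) to 0.629 (Kap and Cubn) over all 9 markers, where 4 against 4 libraries can reach 0.0286. The groups separated for 0 of the 9, against 29.5% of genes tested. The median log2 fold change of the 9 was -0.26, beside -0.01 over all genes tested, and the summed level was 0.588 times as high in AVP-flox;Cre as in AVP-flox. Both values depended on single control libraries: without AVP-flox 1 the median was 0.03 and the ratio 1.08, without AVP-flox 3 they were 0.03 and 0.637, without AVP-flox 2 -0.53 and 0.472, and without AVP-flox 4 -0.58 and 0.459.

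**Figure D2:**
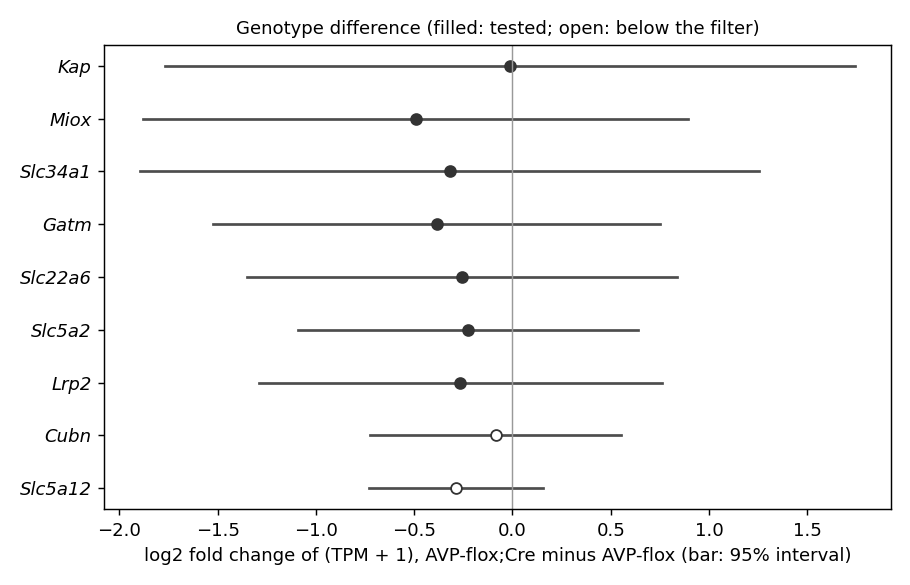
Log2 fold change of TPM + 1, AVP-flox;Cre minus AVP-flox, for the 9 markers from top to bottom by mean TPM, with 95% intervals from limma. Filled points passed the filter, open points (Cubn and Slc5a12) come from the fit without a filter, and all 9 intervals include 0.

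The markers varied most among the AVP-flox libraries. From the lowest to the highest library, Slc22a6 spanned 2.98-fold in AVP-flox;Cre and 20.7-fold in AVP-flox. Kap spanned 3.04-fold in AVP-flox;Cre and 16.8-fold in AVP-flox, and Slc34a1 spanned 2.33-fold in AVP-flox;Cre and 16.1-fold in AVP-flox. The log2(TPM + 1) range was wider in AVP-flox than in AVP-flox;Cre for 9 of 9 markers, against 44.8% of all genes tested. Its median over the markers was 0.72 for AVP-flox;Cre and 2.31 for AVP-flox, beside 0.47 for AVP-flox;Cre and 0.43 for AVP-flox over all genes tested. AVP-flox 1 and 3 were the 2 highest libraries for 9 of 9 markers, with AVP-flox 1 first in 5 and AVP-flox 3 first in 4. Among all genes tested, 4.84% had AVP-flox 1 and 3 as their 2 highest libraries. This pair was picked from the values of the same 9 markers, which moved together, so 9 of 9 beside that share is a description only. AVP-flox 2 and 4 both lay below every AVP-flox;Cre library for 6 of the 9.

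Part of this spread was shared by the markers. The SD of log2 TPM over the 8 libraries ran from 0.95 (Slc5a12) to 1.47 (Slc22a6). Taken relative to the mean of the other 8 markers in the same library, it ran from 0.36 (Gatm) to 0.79 (Cubn) and was smaller for 9 of 9. For 10 genes of the principal cell, among them Aqp2, Aqp3 and Avpr2, the same step lowered the SD in 3 of 10 (median 0.35 alone and 0.36 relative to the others). These SDs include the genotype differences, and limma called 3 of the 10 higher and 3 lower with Cre. Such opposite differences alone can keep the SD from falling. Spread shared among libraries of 1 genotype was therefore not tested for these 10 genes.

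**Figure D3:**
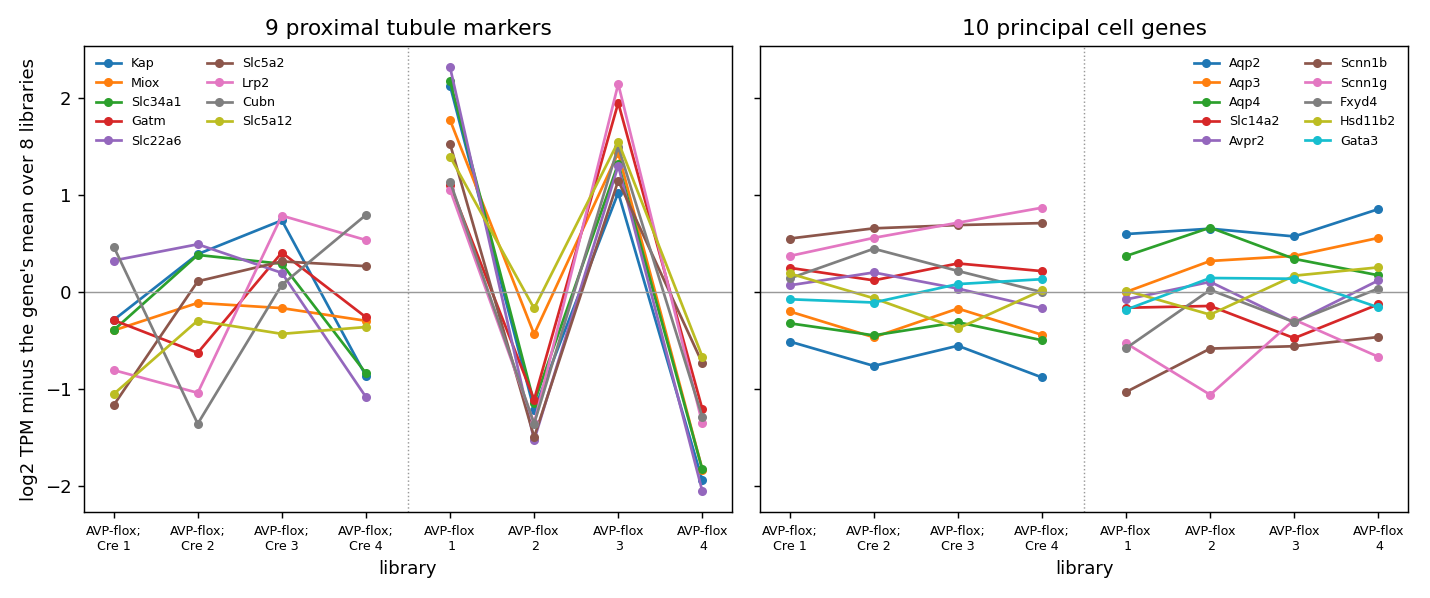
Log2 TPM minus the gene's own mean over the 8 libraries, with AVP-flox;Cre 1 to 4 left of AVP-flox 1 to 4 and lines that only join the values of 1 gene within a group, for the 9 markers (left panel) and 10 principal cell genes (right panel). All 9 markers are at their highest in AVP-flox 1 and 3, while the principal cell genes show no shared peak there.

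The steadiest of the 36 ratios between markers was Kap to Slc34a1. It was 14.9, 14.0, 18.9 and 13.6 in AVP-flox;Cre 1 to 4, and 13.4, 13.2, 11.3 and 12.8 in AVP-flox 1 to 4. The ratio thus spanned 1.68-fold over the 8 libraries, where Kap alone spanned 16.8-fold and Slc34a1 16.1-fold. Kap to Slc34a1 was also the only one of the 36 in which the genotypes did not overlap, by a gap of 13.4 to 13.6. It was picked from ratios that share genes, and this separation was not tested. The median ratio moved 4.07-fold over the libraries. The most variable was Slc22a6 to Lrp2. This ratio was 2.17, 2.86, 0.657 and 0.322 in AVP-flox;Cre 1 to 4, and 2.38, 0.878, 0.552 and 0.610 in AVP-flox 1 to 4. AVP-flox;Cre 1 and 2 and AVP-flox 1 were high for this ratio, and the other 5 libraries were low.

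Those 3 libraries had the male pattern of sex-linked genes and the other 5 the female one. Xist, the RNA of the inactive X chromosome, was at 0.04 to 0.31 TPM in the male-pattern libraries and 19.2 to 39.1 TPM in the female-pattern libraries. Relative to Slc34a1 in the same library, Slc22a6 was at 12.1% to 18.4% in male-pattern and 8.57% to 11.0% in female-pattern libraries, and Lrp2 at 4.22% to 8.50% in male-pattern and 9.76% to 29.3% in female-pattern libraries. The 36 ratios between markers share genes, so they are not independent, and no share over all gene pairs was computed. Of the 36, 8 separated the sex patterns, each with Slc22a6 or Lrp2 in it. Kap, which androgens induce in mouse kidney, did not separate them: its ratio to Slc34a1 was 13.4 to 14.9 in male-pattern and 11.3 to 18.9 in female-pattern libraries. In levels, with genotype in the fit, limma called 0 of the 7 tested markers between the sex patterns (0 with an unadjusted p under 0.05, adjusted p from 0.571 to 0.959), against 0.0578% of all genes tested. The genotype by sex pattern interaction called 0 of 7 as well (0 with an unadjusted p under 0.05, limma adjusted p from 0.667 to 0.792, against 0.0683% of all genes), where AVP-flox 1, the lone male-pattern control, is assumed to vary like the other groups.

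A list of 6 other proximal tubule genes known to differ between male and female mice was read the same way. Only 2 of the 6, Acsm3 and Slc7a12, passed the filter of a mean of 1 TPM. Relative to Slc34a1, 1 of the 6 (Slco1a1) was higher in every male-pattern library, 3 (Slc7a12, Cyp4a14 and Prlr) were lower in every one, and 2 overlapped. Slco1a1 separated narrowly, at 2.40% to 6.37% in male-pattern and 0.043% to 2.30% in female-pattern libraries. Its levels were near the floor, at 0.29 to 1.14 TPM in male-pattern and 0.01 to 0.09 TPM in female-pattern libraries. The overlapping genes were Acsm3, at 13.2% to 35.5% in male-pattern and 1.59% to 29.1% in female-pattern libraries, and Slc22a30, at 3.82% to 7.46% in male-pattern and 1.25% to 9.58% in female-pattern libraries. Slc7a12, an amino acid transporter gene of the female mouse kidney, was at 0.142% to 0.579% of Slc34a1 in the male-pattern and 17.9% to 35.0% in the female-pattern libraries. Slc7a13, the cystine transporter gene of the late segment S3, which stands in another list, was at 28.2% to 35.8% in male-pattern and 1.72% to 10.6% in female-pattern libraries. Of 71 other proximal tubule genes, 5 were higher in every male-pattern library relative to Slc34a1 and 17 were lower. Of all genes tested, 0.0735% were higher and 1.1% lower in every male-pattern library on this scale. No test was made of these ratios, and a ratio also moves with Slc34a1 itself. Slc34a1 was at 7.06 to 42.0 TPM in male-pattern and 2.61 to 23.2 TPM in female-pattern libraries, so it overlapped. Genes that do not follow Slc34a1 will thus rarely separate on this scale, and their low share is no measure of chance for the 71 genes.

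**Figure D4:**
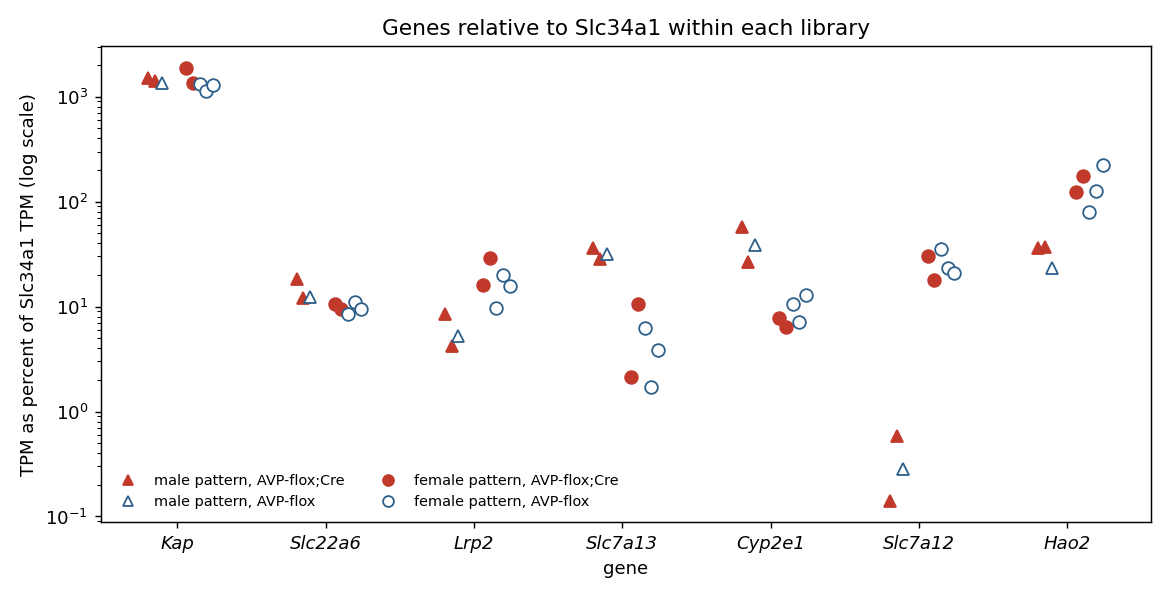
TPM as a percent of Slc34a1 TPM in the same library (log scale) for Kap, Slc22a6, Lrp2, Slc7a13, Cyp2e1, Slc7a12 and Hao2, with male-pattern libraries as triangles and female-pattern libraries as circles, AVP-flox;Cre filled red and AVP-flox open blue. Slc7a12 lies at 0.142% to 0.579% in the male-pattern and 17.9% to 35.0% in the female-pattern libraries, while the patterns overlap for Kap.

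The wider proximal tubule list held 71 further genes, of which 59 passed the filter. In limma 6 of the 59 were higher in AVP-flox;Cre, 0 lower, and 53 did not pass, against 13.1% higher and 14.2% lower among all genes tested. 7 had an unadjusted p under 0.05, all of them higher. The median log2 fold change of all 71 was -0.21. Cltrn, which encodes collectrin, a partner of amino acid transporters that the collecting duct also makes, was 3.36-fold higher, at 156, 184, 161 and 140 TPM in AVP-flox;Cre 1 to 4 and 47.4, 42.5, 52.9 and 48.4 TPM in AVP-flox 1 to 4 (log2 fold change 1.72, SE 0.10, limma adjusted p = 7.61e-06). Dpep1, a dipeptidase gene of the brush border, was 5.56-fold higher, at 53.2 ± 8.1 TPM in AVP-flox;Cre and 9.58 ± 2.68 TPM in AVP-flox (limma adjusted p = 4.53e-05). Dab2, the adaptor of megalin in endocytosis, was 3.08-fold higher, at 51.4 ± 10.5 TPM in AVP-flox;Cre and 16.7 ± 3.6 TPM in AVP-flox (limma adjusted p = 0.000250). Clcn5, an endosomal chloride-proton exchanger gene, was 2.29-fold higher (limma adjusted p = 0.000664), and the remaining calls were the amino acid exchanger gene Slc7a8 (2.22-fold, limma adjusted p = 0.0021) and the D-amino acid oxidase gene Dao (2.50-fold, limma adjusted p = 0.00954), named here after their values were seen. For these 6 the groups did not overlap. Among the controls, Dpep1 had 9.13, 5.96, 11.7 and 11.5 TPM in AVP-flox 1 to 4. Slc7a8 had 5.83, 4.12, 5.38 and 4.49 TPM there and was the 1 gene of the 6 with AVP-flox 1 and 3 both above AVP-flox 2 and 4.

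The order of libraries seen for the 9 markers recurred in part of that list. AVP-flox 1 and 3 were the 2 highest libraries for 34 of the 71 genes (47.9%), with 12 of 19 solute carriers, 14 of 23 metabolic genes, 5 of 14 genes of endocytosis and the brush border, 2 of 6 genes of the S3 segment, 1 of 3 transcription factors and 0 of 6 sex-dependent genes. Slc27a2, a fatty acid transport gene, had 16.9, 16.8, 50.6 and 21.5 TPM in AVP-flox;Cre 1 to 4, and 90.0, 15.5, 84.4 and 17.1 TPM in AVP-flox 1 to 4. It did not pass the test (limma adjusted p = 0.461). Hnf4a, the transcription factor of the proximal tubule, was at 0.53 to 1.36 TPM in the AVP-flox;Cre libraries and 0.51 to 2.73 TPM in the AVP-flox libraries, with AVP-flox 1 and 3 the highest. Khk, the fructokinase gene, was nearly level across all 8 libraries, at 42.1 to 50.8 TPM in the AVP-flox;Cre libraries and 35.6 to 50.8 TPM in the AVP-flox libraries, as was the lipid flippase gene Atp11a, at 67.0 to 103 TPM in the AVP-flox;Cre libraries and 71.8 to 106 TPM in the AVP-flox libraries. Cyp4b1, a cytochrome P450 gene, was at 60.6 to 70.2 TPM in the AVP-flox;Cre libraries and 34.3 to 76.3 TPM in the AVP-flox libraries (limma adjusted p = 0.0944).

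Outside the proximal tubule lists, 11920 genes averaging 5 TPM or more were ranked by Pearson's r over the 8 libraries with the mean of the 9 scaled markers, as a description of likeness only. The lists are not complete, so a gene outside them can still be a gene of the proximal tubule. The 10 most alike were Acy3 (r = 0.965), Ugt3a1 (0.963), Acadm (0.949), Ak4 (0.938), Spink1 (0.926), Slc22a7 (0.925), Smim24 (0.922), Cyp2j5 (0.918), Guca2b (0.911) and Ehhadh (0.904). Ugt3a1 had 4.40, 6.00, 12.7 and 5.88 TPM in AVP-flox;Cre 1 to 4, and 25.9, 2.56, 18.5 and 2.89 TPM in AVP-flox 1 to 4, a span of 10.1-fold in AVP-flox. Acadm, which encodes a fatty acid dehydrogenase of mitochondria, also had AVP-flox 1 and 3 as its highest and AVP-flox 2 and 4 as its lowest libraries, over a narrow span, at 134 to 141 TPM in the AVP-flox;Cre libraries and 158, 127, 158 and 134 TPM in AVP-flox 1 to 4.

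Markers of other segments did not all follow the proximal tubule. Umod, which encodes uromodulin of the thick ascending limb, had 458, 521, 377 and 488 TPM in AVP-flox;Cre 1 to 4, and 1404, 188, 1139 and 1162 TPM in AVP-flox 1 to 4. AVP-flox 4, the lowest library for the proximal tubule sum, was thus among the highest for Umod, while AVP-flox 2 was low for both. The summed level of 5 thick limb markers ran from 1393 to 1690 TPM in the AVP-flox;Cre libraries and from 961 to 2863 TPM in the AVP-flox libraries. Limma called 2 of these 5 genes, both claudin genes of the tight junction and both higher with Cre. Cldn16 was 1.60-fold higher (limma adjusted p = 0.0105) and Cldn10 1.20-fold higher (limma adjusted p = 0.0294). The largest log2 difference of the 5 went the other way, in Slc12a1, which was not called (-1.39, limma adjusted p = 0.0876). Slc12a1 averaged 154 TPM in AVP-flox;Cre and 495 TPM in AVP-flox, and the groups overlapped, with AVP-flox 2 at 98.3 TPM. Umod was also lower with Cre and not called (log2 fold change -0.75, limma adjusted p = 0.343). Among the controls, Cldn16 was lowest in AVP-flox 1, at 29.4 TPM. The claudin genes and the sodium channel subunit genes are named after their values were seen. The distal tubule sum of 4 markers was 6.55 to 11.2 TPM in the AVP-flox;Cre libraries and 4.23 to 12.3 TPM in the AVP-flox libraries. The podocyte sum of 5 markers was 30.3 to 45.5 TPM in the AVP-flox;Cre libraries and 33.9 to 37.0 TPM in the AVP-flox libraries.

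**Figure D5:**
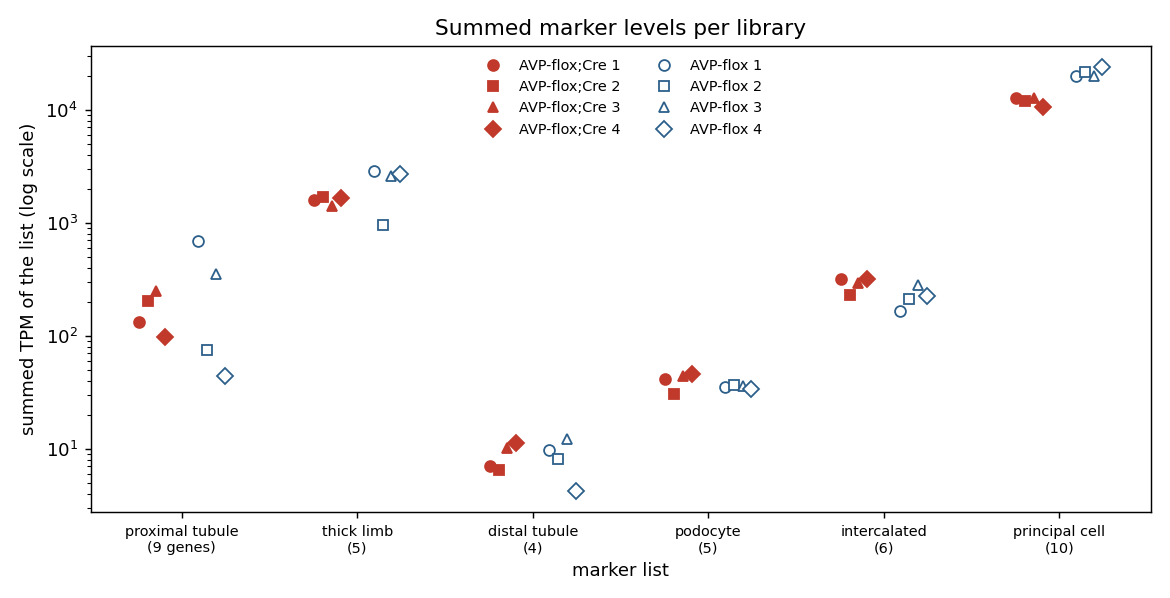
Summed TPM (log scale) of 6 marker lists in each library, with AVP-flox;Cre in filled red left of AVP-flox in open blue and symbol shape for the replicate number. The proximal tubule sum spans 44.1 to 684 TPM in AVP-flox, and AVP-flox 4 is lowest for it but not for the thick limb sum, where AVP-flox 2 is lowest at 961 TPM.

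Markers of other cell types in the dissected tissue were read as sums too. The counts called stand beside 13.1% of all genes tested called higher and 14.2% called lower. The sum of 5 urothelium markers, the lining of the pelvis that covers the papilla, was 4984 to 5723 TPM in the AVP-flox;Cre libraries and 1774 to 2793 TPM in the AVP-flox libraries, and 5 of 5 passed the limma test as higher with Cre. For 6 fibroblast markers the sum was 233 to 295 TPM in the AVP-flox;Cre libraries and 113 to 155 TPM in the AVP-flox libraries (2 of 6 higher), and for 3 thin limb markers 1583 to 1772 TPM in the AVP-flox;Cre libraries and 1086 to 1396 TPM in the AVP-flox libraries (1 of 2 tested higher). For 7 leukocyte markers the sum was 216 to 402 TPM in the AVP-flox;Cre libraries and 115 to 328 TPM in the AVP-flox libraries (1 of 7 higher), and for 6 endothelial markers 1778 to 1840 TPM in the AVP-flox;Cre libraries and 2204 to 2285 TPM in the AVP-flox libraries (2 higher, 2 lower). For 6 intercalated cell markers it was 232 to 318 TPM in the AVP-flox;Cre libraries and 166 to 280 TPM in the AVP-flox libraries (2 of 5 tested higher), and for 3 red cell markers 106 to 478 TPM in the AVP-flox;Cre libraries and 204 to 615 TPM in the AVP-flox libraries (0 called, 0 with an unadjusted p under 0.05 in limma). None of these sums had AVP-flox 1 and 3 as its 2 highest libraries, as the proximal tubule sum did. Their part in the marker levels was not tested.

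The principal cell genes and the mitochondrial share were set beside the proximal tubule sum. Summed over 10 principal cell genes, the level was 12624, 11846, 12615 and 10614 TPM in AVP-flox;Cre 1 to 4, and 19777, 21543, 19743 and 23765 TPM in AVP-flox 1 to 4, so that AVP-flox 1 and 3 were the lowest controls and AVP-flox 4 the highest. Most of this sum was Aqp2, which averaged 6304 TPM in AVP-flox;Cre and 15995 TPM in AVP-flox. Of the 10 genes, limma called 3 higher (Slc14a2 and the sodium channel subunit genes Scnn1b and Scnn1g) and 3 lower (Aqp2, Aqp3 and Aqp4), and 4 were not called, with a median log2 fold change of 0.05. Over all genes tested, 13.1% were called higher and 14.2% lower. Scnn1b was 2.46-fold and Scnn1g 2.38-fold higher with Cre (limma adjusted p = 8.10e-05 for Scnn1b and 0.000527 for Scnn1g). Mitochondrially encoded genes held 2.69%, 2.40%, 2.77% and 2.85% of the total in AVP-flox;Cre 1 to 4, and 4.42%, 2.35%, 4.13% and 3.75% in AVP-flox 1 to 4. Their part in the marker levels was not tested. With the log2 summed level of the 9 markers as a covariate, limma called 4922 genes between the genotypes against 5204 without it. The highest and lowest sums were both in controls, so on the log2 scale this covariate differed little between the genotypes. It could therefore move genotype differences only slightly, and a part of carry-over in them was not tested. Aqp2 had a log2 fold change of -1.35 both ways (limma adjusted p = 7.66e-05 with the covariate and 3.38e-05 without it). Aqp3 and Aqp4, the basolateral water channels, had -0.64 and -0.78 with the covariate, against -0.63 and -0.78 without it, and Slc14a2, the urea transporter gene, had 0.44 against 0.45, all with limma adjusted p under 0.05 both ways.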

How the data were processed

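RNA from 8 mouse kidney samples was made into libraries with the SMART-Seq HT and Nextera XT kits, per the labels' protocols. The deposited table holds TPM values made by the authors, 1 column per library, each scaled to the same total. The submitters' processing notes name STAR and RSEM. The genome build is not given in the sources used here. The WT columns were taken for AVP-flox and the KO columns for AVP-flox;Cre, by replicate number, and 0 columns were left out. The table has 78298 identifiers, 21883 of them without a symbol, and identifiers under 312 shared symbols were summed. TPM keeps no read counts, so no counting interval is given.

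Values were taken as log2(TPM + 1), and 19043 genes averaging 1 TPM or more were tested with limma 3.58.1 in R 4.3.3, with a mean-variance trend, two-sided, and p-values adjusted by Benjamini-Hochberg over these genes (threshold 0.05). The procedure was tested on simulated data. Sex patterns were read from Xist, Ddx3y, Uty, Eif2s3y and Kdm5d. Genes named besides the 9 are 8 of the highest mean TPM and up to 4 called ones with the smallest adjusted p in the wider list, the 10 most alike, and a fixed set of markers of segments, sex and cell types (Hnf4a, Slc7a12, Slc7a13, Slco1a1 and Umod among them). Other genes of the lists, such as Slc7a8, Dao, Cyp2e1, Hao2, Acsm3 and Slc22a30, were named outside this rule, after their values were seen. The values of some named genes are left out here. All 150 listed genes were found, 2 of them through an identifier or older symbol. The members and lists were chosen with earlier results of these data known. The alternatives were other pseudocounts, filters, scalings, limma options, covariates, a replicate block, unsummed identifiers, a threshold of 0.1 and each library left out.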

Additional observations from a re-analysis of the deposited data

Results flagged for a closer look

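In 94 groups of 4 libraries (47 values in each genotype), 7 had a library whose gap to the nearest other took more of the group's range than Dixon's critical value. Chance gives about 1 in 20 such groups. None of the 9 markers and not their sum was among them. AVP-flox 1 stood apart for 4 genes. It was the only male-pattern control, so among the controls its sex pattern and the library itself cannot be told apart. In AVP-flox;Cre, Slc7a13 was at 2.53 and 3.41 TPM in the male-pattern and 0.24 and 0.55 TPM in the female-pattern libraries. AVP-flox 1 had 13.2 TPM of Slc7a13 against 0.10 to 0.40 TPM in the other AVP-flox libraries. It had 1.14 TPM of Slco1a1, an organic anion transporter gene of the male mouse kidney, against 0.01 to 0.06 TPM. It had 76.3 TPM of Cyp4b1 against 34.3 to 41.0 TPM, and 455 TPM of Aqp1, a water channel of the proximal tubule and the thin limb, against 568 to 586 TPM. AVP-flox 3 had 848 TPM of Slc14a2 against 1054 to 1081 TPM in the other AVP-flox libraries. AVP-flox;Cre 3 had 50.6 TPM of Slc27a2 against 16.8 to 21.5 TPM in the other AVP-flox;Cre libraries, and 7.69 TPM of Cyp2j5 against 1.88 to 2.81 TPM.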

How the results depend on the processing

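Of the 359 values computed under alternatives, 341 kept their direction and their side of the threshold, or stayed within the spread or within 1.5 times the count. The spread was an SD of 0.757 for the median log2 fold change and 1.38 for the log2 summed level. It was wide enough that a median of 0.03 and a ratio of 1.08, without AVP-flox 1, counted among the 341. The number of the 9 markers called was 0 under all 23 alternatives run on it, with the lowest adjusted p at 0.0905 (Miox). The median log2 fold change of the markers ran from -0.58 to 0.03 and the ratio of summed levels from 0.459 to 1.08 over each library left out. Log2 fold changes turned positive, with none called, for Kap with median-of-ratios scaling (0.0048), without AVP-flox;Cre 2 and 4 (0.22, chosen after seeing the data) and with single libraries left out (-0.65 to 0.69), and with single libraries left out for Slc34a1 (-0.89 to 0.30), Lrp2 (-0.53 to 0.14), Slc5a2 (-0.50 to 0.05), Slc22a6 (-0.58 to 0.19) and Gatm (-0.73 to 0.08). Miox stayed negative (-1.13 to -0.0061). These turns came without AVP-flox 1 (Kap 0.69, Slc34a1 0.30, Slc22a6 0.19, Slc5a2 0.051), without AVP-flox 3 (Kap 0.33, Lrp2 0.14, Gatm 0.080, Slc34a1 0.026) and, for Kap, without AVP-flox;Cre 1 (0.08) or 4 (0.27). The male pattern was in AVP-flox;Cre 1 and 2 but only in AVP-flox 1. With sex pattern as a covariate, Kap was at -0.33 against -0.01 without it, and Slc34a1 at -0.62 against -0.32. Lrp2 moved the other way, from -0.26 to -0.21. The median of the markers was -0.33, and 0 were called. Genes called over the table numbered 5204, against 3409 without a filter, where 67580 genes enter the adjustment, and 3086 without AVP-flox;Cre 2 and 4, with fewer samples. Of the wider list 5 to 7 genes were called. With replicate numbers as a block, 4431 genes and 0 markers were called. Deviations of same-numbered libraries correlated by 0.001 to 0.095, against -0.0631 to 0.0681 for differently numbered libraries of the 2 genotypes. Low correlations cannot exclude that same-numbered libraries share a litter or a batch, and this was not tested. Depth is unknown, and markers below 1 TPM are the least certain.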

Other observations

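The 5 injury genes of the proximal tubule list split. Havcr1, the kidney injury molecule gene that damaged proximal tubule cells switch on, was listed at 0.07, 0, 0.08 and 0.04 TPM in AVP-flox;Cre 1 to 4, against 0.02, 0.03, 0.18 and 0.23 TPM in AVP-flox 1 to 4. Krt20, a keratin gene of injured tubules, ran from 0 to 0.09 TPM in the AVP-flox;Cre libraries and from 0 to 0.13 TPM in the AVP-flox libraries. Sox9, a transcription factor gene of repairing tubules, ran from 0.06 to 0.58 TPM in the AVP-flox;Cre libraries and from 0.25 to 0.60 TPM in the AVP-flox libraries. These 3 did not pass the filter. The other 2 were higher in AVP-flox;Cre, beside 13.1% of all genes tested called higher. Lcn2, the lipocalin gene that injured tubules and the collecting duct both make, was 4.66-fold higher, at 254 ± 99 TPM in AVP-flox;Cre and 54.5 ± 14.7 TPM in AVP-flox (SD, n = 4 each, limma adjusted p = 0.000372), and the adhesion molecule gene Vcam1 was 2.23-fold higher, at 12.4 ± 1.1 TPM in AVP-flox;Cre and 5.55 ± 1.08 TPM in AVP-flox (limma adjusted p = 0.000722). AVP-flox 1, the library with the most proximal tubule signal, had the least Lcn2, at 32.7 TPM. Lcn2, Vcam1, Krt20 and Sox9 were named after their values were seen.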
